A study of Caenorhabditis elegans with 2 samples.

Results

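The C-type lectin genes of Caenorhabditis elegans were taken as all rows of the deposited gene table whose name is clec followed by a number, which gave 239 of 21163 gene rows. Transcripts were measured by RNA sequencing of whole N2 worms, the wild-type laboratory strain, at day 5 and fed Escherichia coli OP50. The control group received the vehicle dimethyl sulfoxide in the bacteria, and the treated group received 100 µM ellagic acid (EA), a plant polyphenol, in the same vehicle. Each group held 1 library, so no difference has a replicate behind it, no test was run, and every interval covers counting error only.

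C-type lectins carry a protein fold that in many animals binds sugars, often with the help of calcium. The worm genome holds a very large family of them, many with a signal peptide for secretion, and several are expressed in the intestine, the tissue that meets ingested microbes. Sets of them are known to change during infection, in part under the p38 MAP kinase PMK-1, although for most members neither the ligand nor the function is known.

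The control library held 41840364 counts over genes and the EA library 39421614. Counts were scaled to library size (CPM) with trimmed-mean factors, and 1 CPM stood for 41.3 counts in the control library and 39.9 in the EA library. Intestinal markers, which mark the tissue in which many lectins are made, were all measured, and the 6 of them had log2 ratios of EA to control from -0.27 to 0.42 with a median of 0.12. In whole worms, fewer cells of a type and less RNA per cell cannot be told apart.

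Most lectin genes were weakly represented. Of the 239 members, 38 had no count in either library, 97 had counts but a mean under 1 CPM, and 104 reached a mean of 1 CPM, the level at which a member is called measured below. By chromosome, V held 85 members with 30 measured, IV held 53 with 31 measured, II held 48 with 22 measured, I held 36 with 10 measured, III held 14 with 8 measured, and all 3 members on X were measured. The median level of measured members was 6.55 CPM, beside 20.7 CPM over all 14221 genes at that minimum.

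The family as a whole took nearly the same share of the transcriptome in both libraries. Member counts summed to 225326 in the control library, 0.539% of all counts (exact binomial 95% interval 0.536% to 0.541%), and to 209701 with EA, 0.532% (0.530% to 0.534%). The log2 ratio of the scaled sums was -0.05 (-0.06 to -0.04). From the authors' FPKM values it was 0.01, and under that scaling the median of all genes moved alike, from 0.00 to 0.06. This total was carried by a few genes. The 3 members of highest mean CPM, clec-63, clec-41 and clec-87, held 45.7% of the control member counts and 50.1% of the EA member counts. Without them the sums were 122259 and 104733 counts, a log2 ratio of -0.17 (-0.18 to -0.16).

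**Figure D1:**
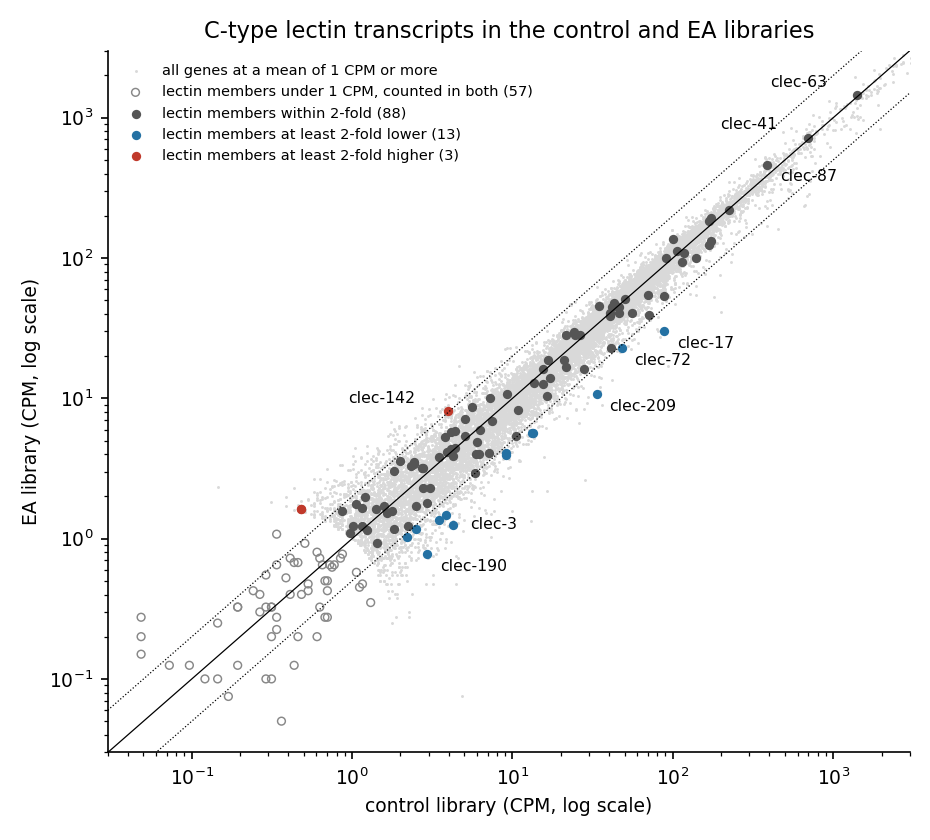
Level of each C-type lectin gene in the control library (x axis) and the EA library (y axis), both in CPM on log scales, over grey points for all genes at a mean of 1 CPM or more. The solid line marks equal levels and dotted lines mark 2-fold. The most abundant members, such as clec-63, lie on the line, and of the members at 1 CPM or more 13 lie at least 2-fold below it and 3 above it, of which clec-175 and clec-238 coincide. Open points under 1 CPM also pass the dotted lines and are not counted, and members at 0 in a library are not drawn.

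Levels compared between genes are given in FPKM, the authors' values per length of transcript. The member of highest level was clec-63 (chromosome II, 12895638 to 12897446, build WBcel235), whose deposited domain entry is a von Willebrand factor type A domain, a fold found in many secreted adhesion proteins. It stood at 1015 FPKM in the control library and 1088 FPKM with EA. Its counts, 58382 and 57706, gave a log2 ratio of 0.03 (0.02 to 0.05), so the most abundant lectin transcript was nearly level. It alone made up 25.9% of the control member counts and 27.5% of the EA member counts.

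Next by FPKM came clec-87, at 377 FPKM in the control library and 470 FPKM with EA. It encodes a chondroitin proteoglycan, a secreted protein that carries long sugar chains. Its counts were 16053 and 18438, a log2 ratio of 0.25 (0.22 to 0.28). The chondroitin proteoglycan gene clec-88 stood at 165 and 189 FPKM and had 6996 and 7336 counts, a log2 ratio of 0.12 (0.07 to 0.17). Both proteoglycan members thus lay above 0, by less than 1.5-fold. The annotated span of clec-87 overlaps the protein-coding gene iars-2, and that of clec-88 overlaps ctsa-4.1, so their counts could include reads of these genes.

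The gene clec-41, whose deposited entry is a CUB domain, an extracellular interaction module, stood at 237 and 259 FPKM. Its 28632 and 28824 counts gave a log2 ratio of 0.06 (0.04 to 0.08). Among the other abundant members, clec-1 stood apart on the higher side, at 121.9 FPKM in the control library and 172.4 FPKM with EA, with 4164 and 5426 counts and a log2 ratio of 0.43 (0.37 to 0.49). On the lower side were clec-52, with 5730 and 4008 counts and a log2 ratio of -0.46 (-0.52 to -0.41), and clec-50, with 6989 and 4922 counts and -0.46 (-0.51 to -0.40). The members clec-150 (0.15) and clec-62 (-0.02) lay closer to 0. Scaled by total counts clec-62 stood at 0.01 and by FPKM at 0.04, while the median of all genes moved alike, to 0.03 and 0.06. None of the 10 members of highest mean CPM was 1.5-fold apart between the libraries.

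Larger differences lay among less abundant members, and more of them were on the lower side. A member is called lower or higher below where its mean reached 1 CPM, its ratio reached 2-fold and the 95% counting interval of the ratio excluded 1. Of the 104 measured members 13 were lower with EA, which is 12.5% beside 3.52% of all genes at the same minimum. On the higher side 3 members were called, 2.88% beside 2.03% of all genes. The minimum is on the mean of both libraries, so a gene can pass it through the library in which it is higher. At a limit of 1.5-fold, 26 members were lower beside 10.6% of all genes, and 9 were higher beside 5.86%.

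The best counted of the lower members was clec-17 (chromosome I, 12430028 to 12431464). It had 3665 control counts and 1199 EA counts, or 62.2 and 22.1 FPKM. Its log2 ratio was -1.56 (-1.66 to -1.47). The gene clec-72 (chromosome IV, 3944816 to 3947362) had 1994 and 906 counts, a log2 ratio of -1.09 (-1.20 to -0.97). Both were counted well above the 1 CPM minimum, and the interval of clec-17 lay wholly beyond 2-fold.

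The gene clec-209 (chromosome V, 2351676 to 2352932) had 1392 and 427 counts, a log2 ratio of -1.65 (-1.81 to -1.50). Its value is uncertain, because the unnamed lectin-domain gene F56A4.2 has the same transcript length of 891 nucleotides and similar counts, 1456 and 447, and the sources used here do not give how reads matching both were counted. The same limit holds for clec-13 and clec-15, which lie on opposite strands of chromosome I between 12631185 and 12636542. They share a transcript length of 1242 nucleotides and had 552 and 548 counts in the control library and 226 each with EA. Their log2 ratios were -1.24 and -1.23. Without clec-13, clec-15 and clec-209 the lower members numbered 10.

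The largest fold on the lower side was that of clec-190 (chromosome IV, 15124931 to 15126121), at 2.95 and 0.777 CPM, 3.75-fold lower with EA (2.54 to 5.83). It passed the 1 CPM minimum only through the control library. Annotated piRNA genes overlap it, and the sources used here do not say whether counting used strand. Next was clec-3 (chromosome II, 3017468 to 3019907), at 177 and 50 counts, 3.39-fold lower (2.48 to 4.78), which overlaps the protein-coding gene C41H7.2. The ratio of each could therefore include reads of an overlapping gene.

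The other lower members lay between 2.12-fold and 2.60-fold. The gene clec-9 had 160 and 59 counts (log2 ratio -1.38), and clec-196 had 144 and 54 counts (-1.36). The gene clec-76 had 376 and 157 counts (-1.21), and clec-222 had 376 and 162 counts (-1.16). No specific role is given here for any of these 4 members. Close to the limit were clec-184, with 104 and 47 counts (-1.09), and clec-47, with 91 and 41 counts (-1.09). Both were 2-fold apart at levels where the EA library held few counts. The value of clec-47 fell short of 2-fold at -0.77 once a trend on transcript length was removed.

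The higher members were few and weakly counted. The genes clec-175 (chromosome IV, 4422329 to 4426566) and clec-238 (chromosome V, 16951804 to 16953629) each had 20 control counts and 65 EA counts, a log2 ratio of 1.73 (1.01 to 2.55). They have the same counts in both libraries, but different chromosomes and transcript lengths, 1771 and 950 nucleotides. The gene clec-142 (chromosome II, 8278678 to 8281035) had 165 and 322 counts, a log2 ratio of 1.01 (0.74 to 1.29), and was at 0.99 with the length trend removed. Just outside the 2-fold limit were clec-198 with a log2 ratio of -0.99 and clec-74 with -0.96, and on the higher side clec-153 and clec-161, each with 0.85. With the length trend removed clec-198 reached 2-fold, at -1.005.

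**Figure D2:**
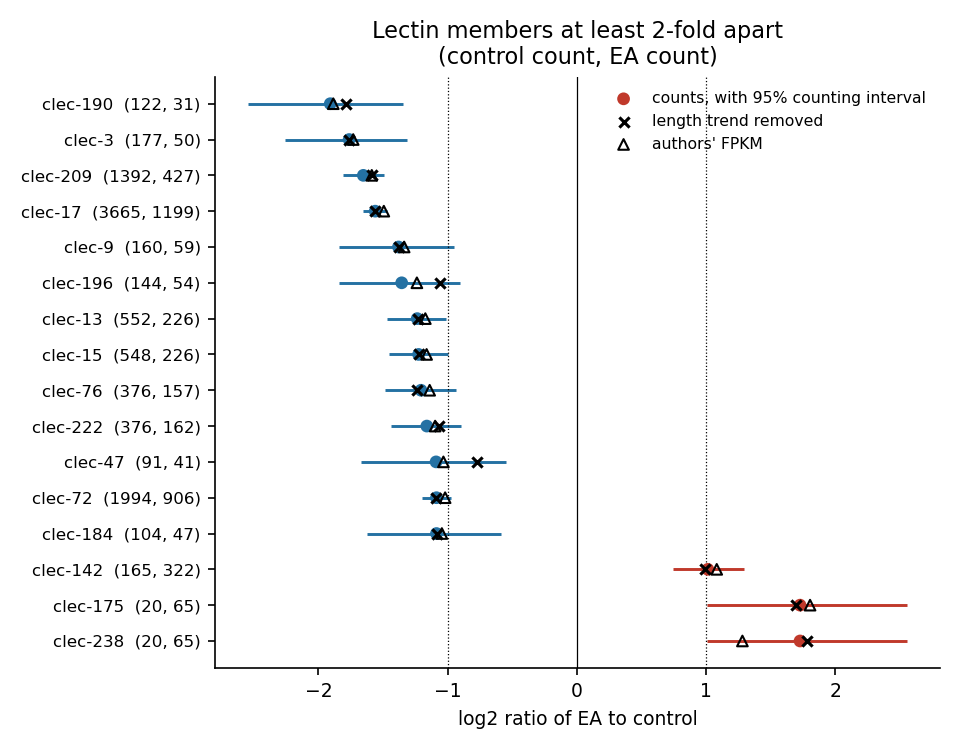
Log2 ratio of EA to control for the 16 members at least 2-fold apart, with the control and EA counts beside each name. Filled points are ratios from counts with their 95% counting interval, crosses the ratio with the length trend removed, and triangles the ratio of the authors' FPKM values. The 3 estimates share a sign for all 16 members, and clec-47 and clec-142 fall inside the dotted 2-fold lines with the length trend removed.

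The share on the lower side was then set beside all genes at higher minimum levels and in the range from 1 to 5 CPM. The minima have no upper limit, so members and all genes above them can still differ in level. At a mean of at least 5 CPM, 7 of 61 members were lower, beside 1.52% of all genes, and 1 was higher beside 0.481%. Without clec-13, clec-15 and clec-209, which may share reads, 4 of 58 members were lower at 5 CPM. At 10 CPM, 3 of 43 members were lower, 6.98% beside 1.06%, or 2 of 42 without clec-209, and 0 were higher beside 0.178%. Between 1 and 5 CPM all genes scattered more, and 6 of 43 members were lower beside 9.42% of all genes, while 2 were higher beside 6.59%. No replicate was available to say how much of this scatter would recur.

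The middle of the family did not move with its lower tail. The median log2 ratio of the measured members was -0.06, beside 0.00 for all genes, with 50 members above 0 and 54 below. The members' lower quartile was -0.58 beside -0.25 for all genes, and their lowest 10% lay under -1.09 beside -0.61. On the other side the upper quartiles were 0.21 and 0.19. Within 0.5 of 0 on the log2 scale lay 61.5% of the members and 79.3% of all genes. Members and all genes were not matched for level here, with medians of 6.55 and 20.7 CPM. Weakly counted genes scattered more, as given above, and the part of level in the wider spread was not tested.

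**Figure D3:**
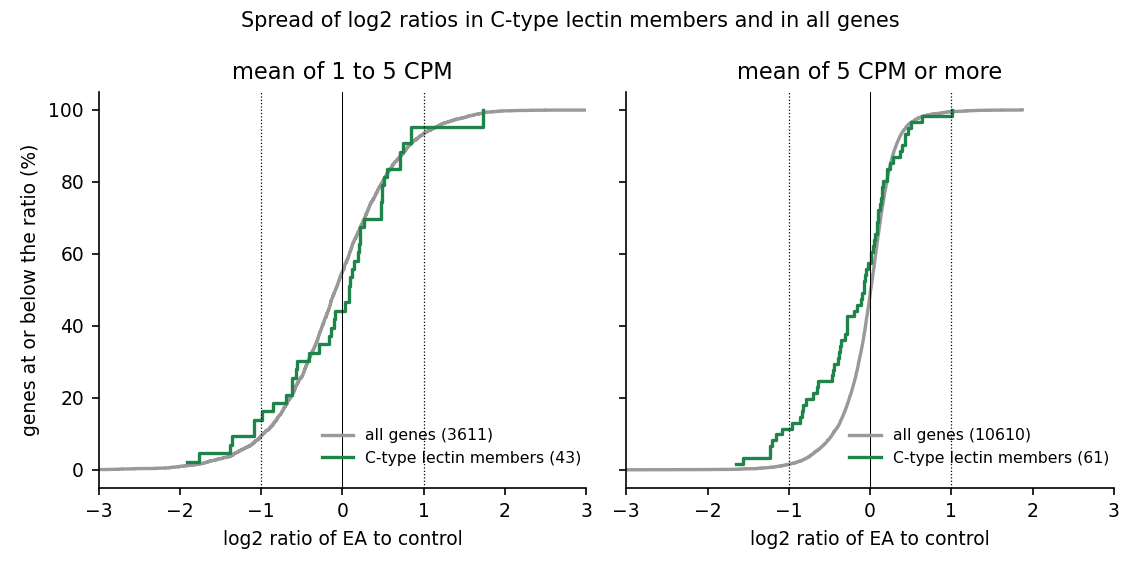
Cumulative share of genes (y axis, percent) at or below each log2 ratio of EA to control (x axis), for C-type lectin members and all genes at a mean of 1 to 5 CPM (left) and 5 CPM or more (right). On the left the curves run close together. On the right the member curve lies above that of all genes below 0, with 7 of 61 members at or past the lower 2-fold line beside 1.52% of all genes.

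The members taken up here as tied to infection in earlier work differed in direction and size. The known-role list also holds clec-17, described above as lower with EA. It had 3665 and 1199 counts, a log2 ratio of -1.56 (-1.66 to -1.47). The interval excluded equal levels on the lower side for clec-17, clec-42, clec-61, clec-67, clec-71 and clec-85. On the higher side it did so for clec-41 and clec-60. The genes clec-60 and clec-61 lie next to each other on chromosome II and are known to be induced in the intestine by Staphylococcus aureus. The better counted of them, clec-60, had 1003 control counts and 1180 EA counts, a log2 ratio of 0.29 (0.16 to 0.41). Its neighbour clec-61 had 48 and 19 counts, a log2 ratio of -1.26 (-2.14 to -0.49) at a mean under 1 CPM. The pair thus pointed in opposite directions, with few counts behind clec-61.

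Of the other S. aureus-induced members, clec-70 had no count in either library and clec-71 had 44 and 23 counts, a log2 ratio of -0.87 (-1.68 to -0.13), also under 1 CPM. The genes clec-39 and clec-49 are known for resistance to Serratia marcescens. The first had 4 control counts and 0 EA counts, too few to compare, and clec-49 had 642 and 644 counts, a log2 ratio of 0.06 (-0.10 to 0.22). The interval of clec-49 included 0.

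The expression of clec-67 and clec-85 is known to depend on PMK-1. The gene clec-85 had 7184 and 5298 counts, a log2 ratio of -0.39 (-0.44 to -0.34), and clec-67 had 2879 and 2173 counts, a log2 ratio of -0.36 (-0.44 to -0.27). Both lay below 0 by less than 1.5-fold. The annotated span of clec-85 overlaps the protein-coding genes Y54G2A.40 and Y54G2A.49, so its counts could include theirs. Members studied in infection by Bacillus thuringiensis are clec-4, clec-41 and clec-42. Of these clec-42, with 1148 and 642 counts, had a log2 ratio of -0.79 (-0.93 to -0.65), which did not reach 2-fold, and clec-4, with 210 and 216 counts, was at 0.09 (-0.19 to 0.37). The neuronal member clec-38, known from axon outgrowth, had 20 and 16 counts, a log2 ratio of -0.26 (-1.32 to 0.75), which was not distinguishable from 0 at this depth.

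Regulators of intestinal immunity differed less than 2-fold, while some other secreted effectors were lower. In a list of the p38 PMK-1 cascade all 7 genes were measured, 0 were higher and 0 lower, and the median log2 ratio was -0.01. Its kinases nsy-1 and sek-1 were at -0.31 and -0.30, and pmk-1 itself was at 0.09. Of 11 other intestinal immune regulators, which include the transcription factors zip-2 and hlh-30, 0 were higher and 0 lower, with a median of 0.05. The TGF-beta pathway of dbl-1, which also controls lectin genes, had 8 members, of which 0 were past 2-fold, with a median log2 ratio of 0.03. Galectins, another lectin family, had 12 members, of which 0 were past 2-fold, with a median log2 ratio of -0.07 and lec-5 lowest at -0.72. The other secreted immune effectors, such as lysozymes, saposin-like proteins and antimicrobial peptides, had 7 of 30 measured members lower, beside 3.52% of all genes, and 0 higher, beside 2.03%. Their median was -0.50, or -0.25 with the length trend removed. The best counted of the 7 was irg-5, with 81387 and 33189 counts and a log2 ratio of -1.24. The others were irg-4, dod-24, dod-22, abf-2 and the antifungal peptide genes nlp-29 (348 and 167 counts) and cnc-4 (274 and 82 counts). No lysozyme or saposin-like gene was among the 7. With the length trend removed cnc-4 was at -1.25 and nlp-29 at -0.46, which is no longer 2-fold.

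The deposited table gives each gene 1 Pfam domain entry, and most of the lower members had the lectin entry, as did most of the measured members. With the lectin C-type domain as entry, 127 members were listed and 71 measured, with a median log2 ratio of -0.14. Of the 71 measured, 11 were lower and 2 higher, while 3.52% of all genes at 1 CPM or more were lower and 2.03% higher. Of 14 members with a von Willebrand entry 8 were measured and 0 were past 2-fold, with a median of 0.00. Of 11 members with a CUB entry 8 were measured and 0 were past 2-fold, with a median of -0.08. Of 58 members with no entry 15 were measured, 2 were lower (clec-190 and clec-222) and clec-142 was higher, with a median of 0.19. The 28 members with a PAN-like entry were nearly silent, with 1 measured and summed counts of 163 and 169. The difference between entries was not tested.

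A group of 5 members shared the Swiss-Prot best hit Blastula protease 10, a sea urchin protease with a CUB domain, in the deposited annotation. These are clec-2, clec-3, clec-13, clec-15 and clec-17, and the group was noticed after its values were seen. The 4 measured ones were all lower, beside 3.52% of all genes, with log2 ratios from -1.76 to -1.23. The gene clec-2 had 14 control counts and 0 EA counts. Summed over the 5, counts were 4956 and 1701, a log2 ratio of -1.49 (-1.57 to -1.41). Since clec-13 and clec-15 may share reads, they do not count as independent members.

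Many lectin genes lie side by side. With at most 2 other protein-coding genes between neighbours, 153 members formed 46 groups. The group on chromosome IV between 3922165 and 3975721 holds 11 members, 6 of them measured, and contains clec-72 and clec-76, both lower. Its other measured members ranged from clec-74 at -0.96 to clec-79 at 0.75, so the group did not move as a block. The 5 neighbouring members clec-62, clec-63, clec-64, clec-65 and clec-66 on chromosome II were all measured. Their summed log2 ratio was 0.02 (0.00 to 0.03), with clec-64 lowest at -0.63.

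The members next to those called lower or higher were mostly weakly counted. Next to clec-222 lies clec-223, with 297 and 162 counts and a log2 ratio of -0.82 (-1.11 to -0.54), which did not reach 2-fold. Next to clec-3 lies clec-2, described above. On the 2 sides of clec-72 lie clec-174, with 30 and 26 counts (-0.15), and clec-73, with 382 and 428 counts (0.21, 0.01 to 0.42). Beside clec-76 lie clec-79, given above, and clec-75. The latter had 46 and 18 counts, a log2 ratio of -1.28 (-2.18 to -0.49) at a mean under 1 CPM. The gene clec-185, the neighbour of clec-184, had 32 and 26 counts, a log2 ratio of -0.24 (-1.05 to 0.54) whose interval overlaps that of clec-184, -1.62 to -0.58. No count was found for clec-189, the neighbour of clec-190, in either library. The neighbour of clec-238, clec-239, had 0 control counts and 4 EA counts.

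**Figure D4:**
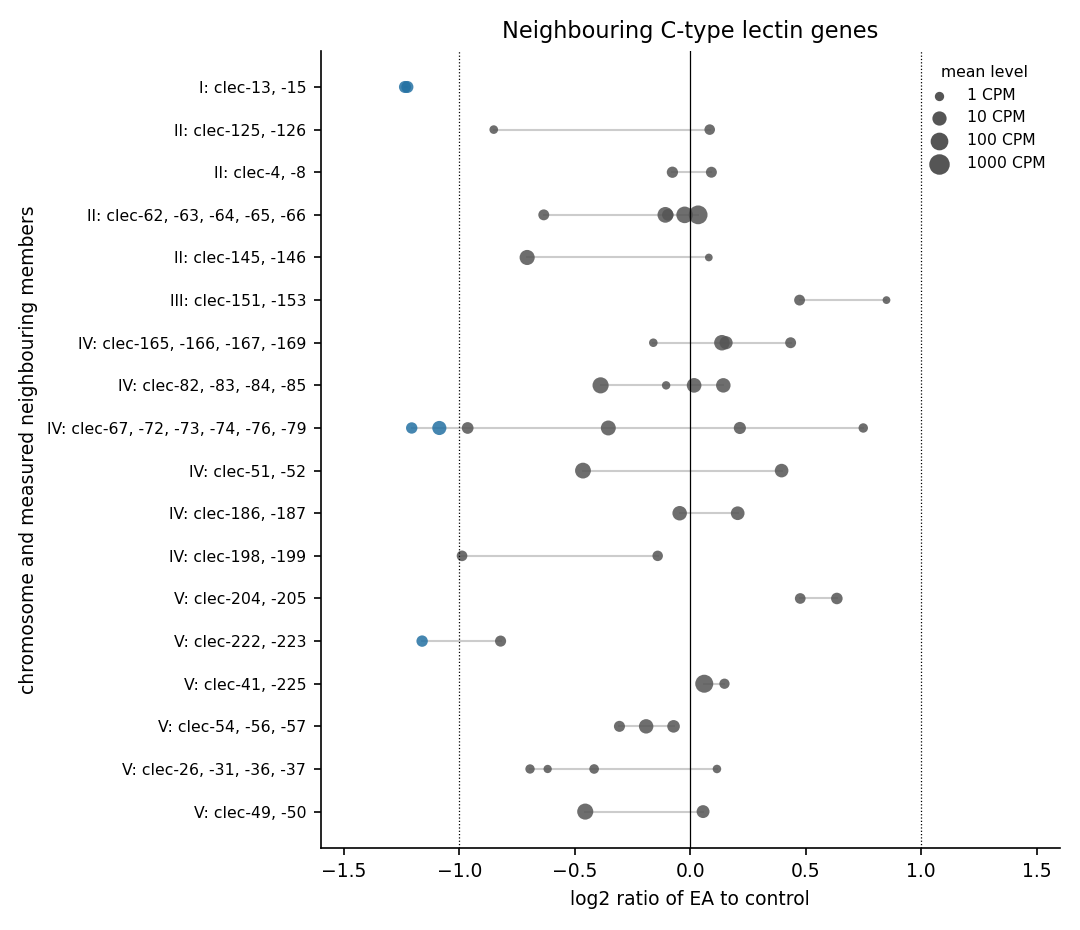
Log2 ratio of EA to control (x axis) for groups of neighbouring C-type lectin genes with at least 2 measured members, 1 row for each group with its chromosome and members. The area of a point grows with mean level in CPM, blue points are members at least 2-fold lower, and grey lines join a group. Some groups lie close together, as clec-13 and clec-15 do, and others spread across 0, as the group with clec-72 does from -1.21 to 0.75.

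Below 1 CPM the members and all genes had somewhat more ratios below 0 than above. The 57 members with counts in both libraries there had 24 ratios above 0 and 33 below, which is 57.9% below, and the interval excluded 1 for 12 of them, 21.1%. Of the 3907 genes at that level 52.1% were below 0 and the interval excluded 1 for 27.9%. All members under 1 CPM summed to 1260 control counts and 1003 EA counts, a log2 ratio of -0.28 (-0.40 to -0.16), beside -0.14 for the summed counts of all genes under 1 CPM. Of all 239 members, a further 24 were counted in the control library but listed at 0 with EA, and 16 showed the reverse. Of all 21163 gene rows, 1000 and 622 did so. Members and gene rows were not matched for level in this comparison. Among members the largest of the first kind was clec-53, with 23 counts against 0. It was 7.40-fold lower when the 0 is read as 3 counts in that library. The largest of the second kind was clec-157, with 0 against 13 counts, at least 4.49-fold higher. Such zeros need care, because of the 893 genes with 20 to 30 counts in the control library 27 were listed at 0 with EA and 40 at 1 to 5, and of the 864 genes with 20 to 30 EA counts 14 were at 0 in the control library.

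Short transcripts were lower with EA across all genes, which bears on short lectins. The trend over all genes stood at -0.34 for 500 nucleotides, -0.04 for 1000 and 0.04 for 2000. Measured members had a median length of 1275 nucleotides, beside 1397 for all genes, and ranged from 520 to 10850. With the trend removed 13 members were again lower, 12 of them shared with the count above, beside 2.55% of all genes. On the higher side 2 members remained beside 2.5% of all genes. Among the lower members the trend moved clec-47 (520 nucleotides) and clec-196 (540 nucleotides, from -1.36 to -1.06) the most.

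**Figure D5:**
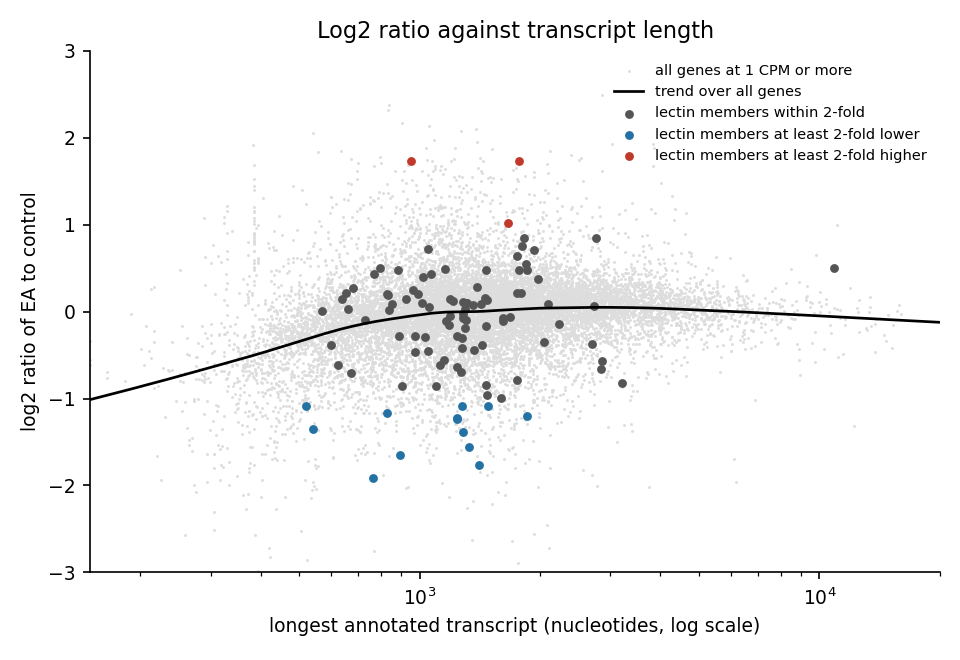
Log2 ratio of EA to control (y axis, shown from -3 to 3) against the longest annotated transcript (x axis, nucleotides, log scale) for C-type lectin members and, in grey, all genes at a mean of 1 CPM or more. The black line is the trend over all genes, which falls to -0.34 at 500 nucleotides. Most lower members lie between 1000 and 2000 nucleotides, where the line is near 0.

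Marker genes of some cell types differed between the libraries. Of 6 sperm markers 5 were measured and all 5 were above 0. At least 2-fold higher were 3 of them, beside 2.03% of all genes at 1 CPM or more. Summed over the list, counts were 1260 for control and 2126 for EA. All 4 germline markers were above 0 with a median log2 ratio of 0.21, and oocyte and eggshell markers had a median of 0.35. Neuronal and pharyngeal markers had medians of -0.19 and -0.25, and body muscle markers -0.01. Of 4 epidermal markers 2 were measured, with a median of 0.13. The coelomocyte list has 1 marker, unc-122, with 165 and 57 counts, a log2 ratio of -1.47 (-1.94 to -1.04). No embryonic marker reached 1 CPM, and of the 4 of them med-1 and pes-10 were at 0 with EA and tbx-37 at 0 in the control library. The part of these cell types in the lectin differences was not tested.

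The authors' deposited table holds their own calls for 109 of the members. The authors' deposited table called 12 members down, beside 3.52% of the genes with a call, and it called 4 up, beside 2.03%. Of the 16 members named higher or lower here, 14 carried the same call there. The authors' deposited table did not call clec-47 and clec-184, and it additionally called clec-11 down and clec-99 up, whose means lay under 1 CPM here, at 54 and 14 counts for clec-11 and 14 and 43 for clec-99. Those calls rest on the same 2 libraries and add no replicate.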

How the data were processed

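RNA from whole N2 worms at day 5 was sequenced in 1 control and 1 EA library, grouped by sample title. The authors deposited raw counts per gene and FPKM, and per the labels' protocols the reference was WBcel235 and FPKM was scaled by transcript length and mapped fragments. The authors' deposited log2 ratio and call per gene were copied only as theirs; the submitters' processing notes name edgeR. For the aligner, the counter, use of strand and treatment of reads matching several genes, nothing is stated (not given in the sources used here). Totals were 41840364 and 39421614 counts.

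From the deposited counts, CPM came from trimmed-mean (TMM) factors of edgeR 4.0.16 under R 4.3.3, over all gene rows. Log2 ratios of EA to control had 0.5 added to each count, and 95% intervals are exact conditional binomial (Clopper-Pearson) intervals. Reads are not independent molecules, so intervals and floors cover counting error only. A count of 0 allows up to the level of 3 counts, 0.0726 CPM for control and 0.0752 CPM for EA. With 1 library per group no p-value was computed. Scaling by total counts or by DESeq2 1.42.0 size factors, FPKM ratios, other minima and limits, and removal of a lowess trend on transcript length (statsmodels 0.14.6) were alternatives. Coordinates (counted from 1) came from RefSeq and the longest transcript from Ensembl, both for WBcel235, and all 239 members matched both. The steps were tested on simulated data.

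Members named are those past the 2-fold rule, the members next to them, the 10 of highest mean CPM and 15 with a known role. The genes clec-65 and clec-66 are named as part of the group with clec-62 and clec-63. Others (clec-11, clec-53, clec-64, clec-74, clec-78, clec-79, clec-99, clec-145, clec-146, clec-153, clec-157, clec-161, clec-198) were chosen after their values were seen. The members and gene lists were chosen with earlier results of these data known. No sequence is printed.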

Additional observations from a re-analysis of the deposited data

How the results depend on the processing

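The count of members lower with EA was 13 under total-count scaling, DESeq2 size factors, FPKM ratios, 5 added to each count, no interval and removal of the length trend. It was 33 with no minimum level, 7 at 5 CPM, 3 at 10 CPM and 26 at a 1.5-fold limit. The count of higher members was 3, or 2 with 5 added or with the length trend removed. It was 11 with no minimum, 1 at 5 CPM, 0 at 10 CPM and 9 at 1.5-fold. The summed log2 ratio of -0.05 became -0.0178 with total counts, 0.0121 with FPKM, -0.0409 with the length trend removed, -0.172 without the 3 members of highest mean CPM and -0.0429 without members that may share reads. The median ranged from -0.11 with no minimum to 0.01 with FPKM, and FPKM moved the median of all genes alike, from 0.00 to 0.06. No called member changed sign under the scaling, FPKM, length or added-count alternatives. Low counts were even more often than odd (55.5% of counts from 1 to 20 in the control library, 56.5% with EA). Halving the counts for the interval and leaving out members that may share reads were added after seeing the data, and the former left 13 lower and 3 higher, the latter 10 lower and 3 higher. Without adjacent members of equal counts 11 were lower. Leaving out members by protein identity was intended but not run, because no protein sequences were used here; the cause of the other shifts was not tested.

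No paired analysis was possible because each group holds 1 library. Depth limits members under 1 CPM, which stands for 41.3 control counts and 39.9 EA counts. Differences between cultures, batches or library preparation cannot be told apart from EA.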

Other observations

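The deposited annotation gives a lectin C-type Pfam entry to 12 genes that are not named clec, of which 6 were measured. Their median log2 ratio was -0.39, with 1 above 0, 5 below and 2 at least 2-fold lower, beside 3.52% of all genes. The unnamed gene Y54G2A.37 on chromosome IV (2820708 to 2823542) had 130 control counts and 51 EA counts, a log2 ratio of -1.29 (-1.80 to -0.82). The other was F56A4.2, which may share reads with clec-209 as given above and so does not count as independent of it. The gene Y54G2A.7, close by on the same chromosome (2838608 to 2839432), had 1601 and 1857 counts, a log2 ratio of 0.26 (0.17 to 0.36). Its annotated span overlaps neighbouring lectin members, so its counts could include theirs. The gene F52E1.2 on chromosome V had 1084 and 675 counts, a log2 ratio of -0.63 (-0.77 to -0.49). Of the gene models that the authors added, newGene_1555 had 24 and 0 counts, newGene_917 had 34 and 6, newGene_924 had 24 and 16, and newGene_455 had 10 and 26. The remaining genes were Y46C8AM.1 (186 and 168 counts), Y38H6C.8 (111 and 97), C25G4.17 (9 and 13) and R02F11.12, with no count in either library.

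The lectin member with the longest annotated transcript was clec-78 on chromosome IV, at 10850 nucleotides and with an EGF-like entry in the deposited table. It stood at 5.06 CPM in the control and 7.17 CPM in the EA library, a log2 ratio of 0.50 (0.24 to 0.77). Its annotated span overlaps other protein-coding genes and pseudogenes, so its counts could include theirs. Among well counted members clec-146 on chromosome II had 3633 and 2149 counts, a log2 ratio of -0.71 (-0.78 to -0.63), while its neighbour clec-145 had 48 and 49 counts, a log2 ratio of 0.08 (-0.52 to 0.69).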
